A study of Homo sapiens with 12 samples.

Results

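Transcription after combined inhibition of mTOR and SHP2 was compared with untreated cells in 3 hepatocellular carcinoma (HCC) cell lines, Hep3B, MHCC97H and Huh7. The comparison was made by treatment label between 6 of the 12 libraries of the series, namely 3 combination and 3 untreated libraries that form 3 pairs by cell line. All 12 libraries entered the fit that estimated the spread. Every cell line carried the wild-type (WT) genotype label, and none was genetically changed. The combination joined AZD8055 at 100 nM, which blocks the mTOR kinase, to 5 µM of compound #57, which blocks the phosphatase SHP2, and the controls received neither. MHCC97H cells were exposed for 24 h and Hep3B and Huh7 cells for 48 h, and an effect of time cannot be told apart from one of cell line. The other 6 libraries received AZD8055 alone or compound #57 alone, and the dose of compound #57 alone is not given by the labels. Each condition had 1 library per cell line, so that the 3 cell lines are the replicates of the treatment.

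The mTOR kinase forms 2 complexes that read nutrients and growth factors. The first of them promotes translation, ribosome production and the synthesis of nucleotides, amino acids and lipids, and restrains autophagy and the lysosome. SHP2, encoded by PTPN11, carries signals from most receptor tyrosine kinases to RAS and thereby to the kinase ERK, whose activity is read from the transcripts of its feedback regulators such as DUSP6, SPRY4 and the ETV factors. Blocking mTOR is known to relieve feedback on receptors and their adaptors, and the question here was what inhibition of both nodes does to transcription.

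The untreated libraries held between 10667343 and 15968317 reads and the combination libraries between 11627361 and 12368407. The table covered 11548 genes with a lowest mean log2 level of 4.65. Levels are given here as normalised reads, that is reads per 10000000 reads of the library, or as unscaled reads where stated, and changes as log2 differences of those levels plus 1, combination minus untreated. Of 10 hepatocyte and hepatoma markers, all 10 were in the table, but MHCC97H expressed them weakly, with a summed level of 1449 normalised reads untreated and 3470 with the combination, against 368867 and 286732 in Hep3B and 439364 and 419599 in Huh7. The 3 epithelial markers summed to between 32071 and 56112 in all 6 libraries. Of 6 stromal markers 3 were in the table, of 3 endothelial markers 1, and of 4 blood markers 0.

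The combination changed the level of 4154 of 11548 genes (36.0%) by limma with an adjusted p under 0.05. Of these, 2410 (20.9% of all genes) were higher and 1744 (15.1%) lower, and 4068 of the 4154 had the same sign in all 3 cell lines. The median change of the called genes was 0.87 for those higher and -0.71 for those lower, and 960 higher and 359 lower genes reached a mean change of 2-fold. The share of higher genes was 58.0% of the calls, and 47.2% of 4221 calls when each library was centred on its median. The median change of all genes was 0.09 before and 0.02 after centring. These counts rest on the pairing by cell line, on Huh7 and on the libraries with 1 drug in the fit. Without the cell line term 0 genes were called by limma, with 1268 at an unadjusted p under 0.05. Without Huh7 11 genes were called, with 3584 unadjusted, and without Hep3B 1797. With only the 6 libraries compared 1889 were called, 1021 higher and 868 lower. Within the gene lists described here, the fit without Huh7 called DDR1 and BMF and no other member, so counts without Huh7 are not repeated.

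**Figure D1:**
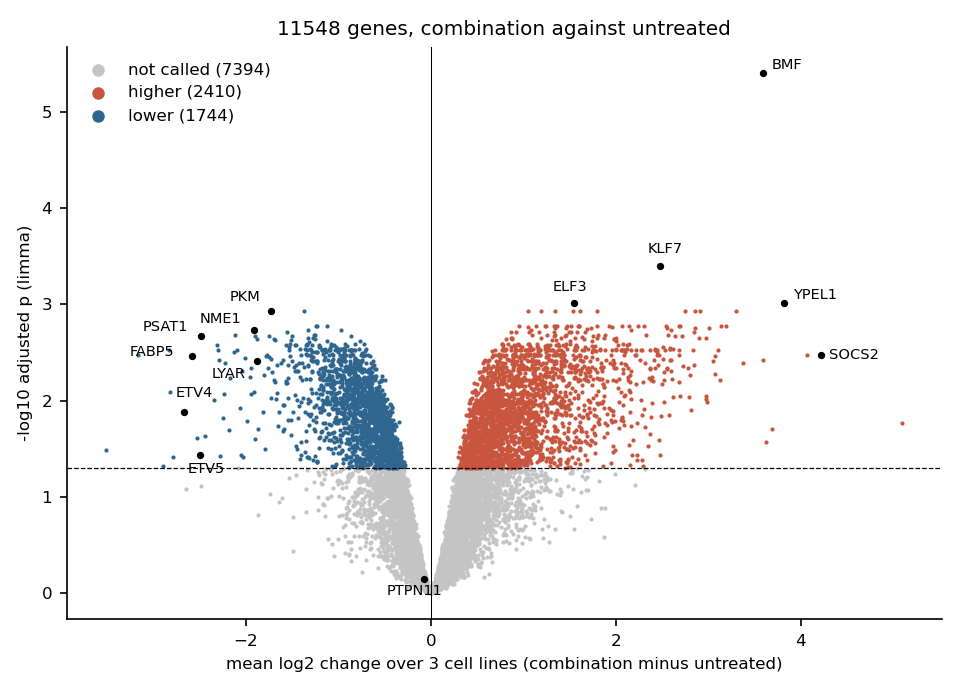
Mean log2 change over the 3 cell lines (x axis) against -log10 of the limma adjusted p (y axis) for each of 11548 genes, with the dashed line at the threshold. Genes called higher (2410) and lower (1744) lie on both sides, BMF stands alone at the top with an adjusted p of 3.94e-06, and PTPN11 lies near 0.

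Within the single cell lines, a change of at least 2-fold was seen upwards in 1339 genes in Hep3B (11.6%), 1316 in MHCC97H (11.4%) and 1387 in Huh7 (12%). Downwards it was seen in 693 (6.0%), 545 (4.72%) and 746 (6.46%) genes in the same order. In all 3 cell lines, 352 genes (3.05%) were at least 2-fold higher and 129 (1.12%) at least 2-fold lower. These are differences between pairs of libraries without a test. The SD of the change over all genes was 0.86 in Hep3B, 0.85 in Huh7 and 0.78 in MHCC97H.

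PTPN11 itself was not changed beyond the spread between lines. PTPN11 had 2853 normalised reads in untreated Hep3B, 4379 in MHCC97H and 4412 in Huh7, and 3243, 3551 and 4132 with the combination. One line was thus higher and both others lower, and the mean change of -0.07 (SE 0.14, adjusted p = 0.706 by limma) was not past the threshold. MTOR was lower by 0.46 (SE 0.15, adjusted p = 0.0413), from nearly no change in Hep3B (-0.01) to -0.60 in MHCC97H and -0.76 in Huh7. RPTOR, the defining subunit of the first mTOR complex, fell by 0.44 (adjusted p = 0.0133) and RICTOR, that of the second, rose by 0.48 (adjusted p = 0.0496). The mTOR and TSC pathway lay near all genes, which had 20.9% called higher, 15.1% lower and a median of 0.09. Of its 38 members, 10 (26.3%) were called higher and 6 (15.8%) lower, with a median of 0.11. Among those higher were the GTPase RRAGB at 1.37, which tethers the first complex to the lysosome and rested on 2 and 7 unscaled reads in Huh7, TSC2, its main inhibitor, at 0.62, and the initiation factor EIF4B at 0.87. EIF4EBP1 and EIF4E, the translational repressor under mTOR control and the cap-binding protein it blocks, fell by 1.30 and 1.02. Without Hep3B 2 members were called higher and 3 lower, and without MHCC97H 5 and 6.

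Many ERK output genes fell. Of 22 members of the ERK output and feedback list, 10 were called lower and 1 higher, 15 were lower in all 3 cell lines, and the median was -0.90 against 0.09 for all genes. Without MHCC97H 14 were called lower and 3 higher. ETV4, an ETS factor transcribed in response to ERK, went from 400 to 23.5 normalised reads in Hep3B, from 473 to 144 in MHCC97H and from 1133 to 235 in Huh7. All 3 combination libraries thus lay below all 3 untreated libraries, with a mean change of -2.67 (SE 0.65, adjusted p = 0.0131). ETV5 went from 474 to 44.5, from 869 to 282 and from 1244 to 222 (mean -2.49, adjusted p = 0.0365). DUSP6, the phosphatase that shuts ERK off in the cytoplasm, went from 923 to 64.8, from 1766 to 745 and from 1420 to 292 (mean -2.45, adjusted p = 0.0235). For both genes every pair fell, and the untreated and combination levels did not overlap. ETV1 fell by 2.29 (adjusted p = 0.00375), and the sphingosine kinase SPHK1 by 1.33 (adjusted p = 0.00182).

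The size of this fall differed between the cell lines, which was not tested because each line had 1 pair. In MHCC97H the changes were -1.71 for ETV4, -1.62 for ETV5 and -1.24 for DUSP6, while in Hep3B they were -4.03, -3.38 and -3.81. EGR1, an immediate early factor chosen after its values were seen, had 851 unscaled reads in untreated Hep3B and 20 with the combination, 289 and 11 in Huh7, and 1850 and 962 in MHCC97H. Its mean change of -3.51 was the lowest of all genes in the table. SPRY4, a feedback inhibitor of RAS signalling, was lower by between 1.68 and 3.19 in every line but missed the threshold (mean -2.65, SE 1.09, adjusted p = 0.083). MYC was lower in all 3 lines, by 0.60 in Hep3B, 0.23 in MHCC97H and 0.81 in Huh7, and also missed it (adjusted p = 0.167).

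Other members of the list went separate ways. DUSP4, the nuclear counterpart of DUSP6, went from 35.6 to 264 normalised reads in Hep3B and from 433 to 1219 in Huh7, but from 1459 to 959 in MHCC97H (adjusted p = 0.0786). PHLDA1 was likewise higher in Hep3B (0.97) and Huh7 (1.06) and lower in MHCC97H (-0.82, adjusted p = 0.452). CCND1, the G1 cyclin D1, was lower by 0.93 in Hep3B and higher by 0.59 in Huh7, with a mean change of -0.18 (adjusted p = 0.623). JUNB, an AP-1 factor, was the one member called higher, from 310 to 943 in Hep3B, 296 to 830 in MHCC97H and 71.4 to 359 in Huh7 (mean 1.80, SE 0.34, adjusted p = 0.00508).

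**Figure D2:**
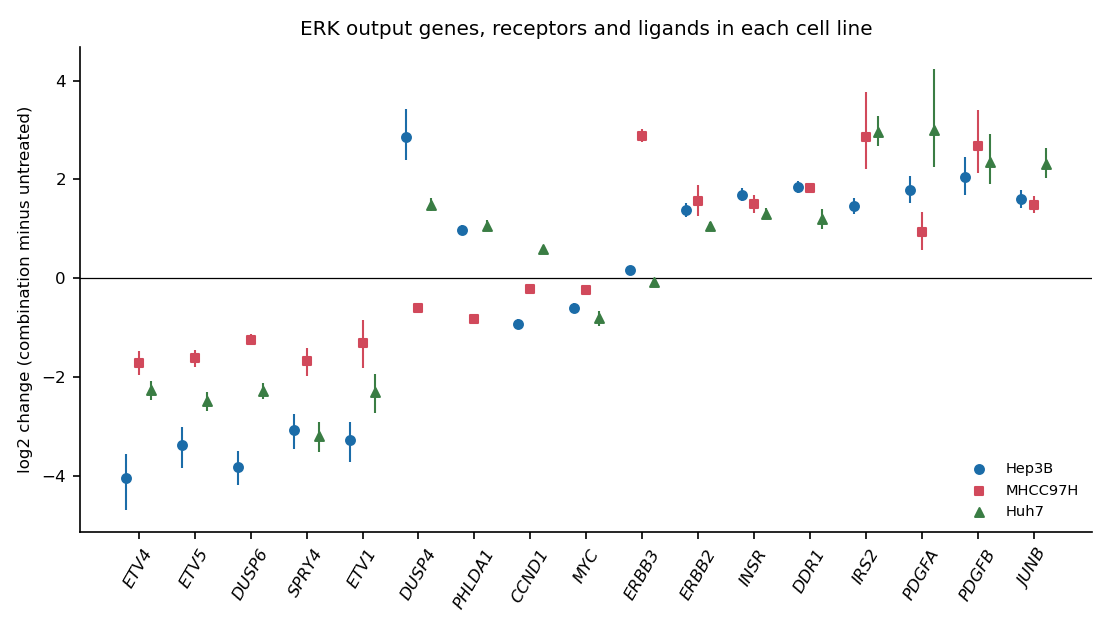
Log2 change, combination minus untreated (y axis), of ERK output genes, receptors and ligands (x axis) in each of the 3 cell lines, with 95% Clopper-Pearson intervals of the ratio of reads, which cover counting error only. ETV4, ETV5, DUSP6, SPRY4 and ETV1 lie below 0 in every line, DUSP4 and PHLDA1 on both sides of it, and ERBB2, INSR, DDR1 and IRS2 above it in every line.

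Few receptors were called, and several adaptors rose. Of 50 receptor tyrosine kinases listed, 20 were in the table, with 3 called higher, 2 lower and a median of -0.10. Both shares were below those of all genes, 20.9% higher and 15.1% lower. The counts depended on the processing, and by voom 5 receptors were called higher and 3 lower. The insulin receptor INSR went from 550 to 1776 normalised reads in Hep3B, from 245 to 693 in MHCC97H and from 578 to 1430 in Huh7. All 3 combination levels were above all 3 untreated levels, and the mean change was 1.5 (SE 0.18, adjusted p = 0.00191). The collagen receptor DDR1 rose by 1.62 (SE 0.15, adjusted p = 0.00119) and ERBB2 by 1.33 (SE 0.16, adjusted p = 0.00191). ERBB3, the kinase-poor partner of ERBB2, went from 412 to 3032 in MHCC97H but from 2505 to 2796 in Hep3B and from 3643 to 3437 in Huh7 (adjusted p = 0.119). The ephrin receptor EPHA2 fell by 0.87 (adjusted p = 0.0277), with nearly no change in Hep3B (-0.04). AXL was at 577 normalised reads in untreated MHCC97H and 361 with the combination, and in Huh7 rested on 1 and 6 unscaled reads (adjusted p = 0.305).

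Of 25 members of the SHP2, adaptor and RAS list, 9 (36.0%) were called higher and 2 (8.0%) lower, against 20.9% and 15.1% of all genes. The median was 0.12, and 0.23 without Huh7 and 0.20 without MHCC97H. The 2 lower were the adaptors GRB2 at -0.40 and CRKL at -0.50. IRS2, the insulin receptor substrate, went from 369 to 1016 normalised reads in Hep3B, from 13.1 to 101 in MHCC97H and from 68.9 to 539 in Huh7 (mean 2.42, SE 0.37, adjusted p = 0.00301). The docking proteins GAB1 and GAB2, which recruit SHP2, rose by 1.10 and 1.23, and SOS1, the exchange factor that loads RAS, by 1.09 (adjusted p = 0.00443, 0.00292 and 0.00301). Of 15 ligands, 4 (26.7%) were called higher, near the 20.9% of all genes, and 0 lower, against 15.1%. Among the 75% of genes with the highest mean, 0 ligands were called in either direction. PDGFB rose from 65.6 to 273 in Hep3B, 20.0 to 133 in MHCC97H and 26.3 to 138 in Huh7 (mean 2.36, adjusted p = 0.00586), and PDGFA and PDGFC by 1.91 and 1.5. BTC, a ligand of the ERBB receptors, rose by 2.91 in Hep3B and 2.11 in Huh7 and by 0.15 in MHCC97H (adjusted p = 0.0289). Without Hep3B 2 ligands were called higher, and without MHCC97H 6 were called higher and 1 lower.

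Of 28 ATF4 and amino acid genes 14 were called lower and 0 higher, with a median of -0.65, and without Hep3B 9 were. PSAT1, an aminotransferase of serine synthesis, went from 3506 to 841 normalised reads in Hep3B, from 1684 to 258 in MHCC97H and from 4864 to 750 in Huh7. Each combination level was below each untreated level, with a mean change of -2.49 (SE 0.32, adjusted p = 0.00211). SHMT2, which passes the carbon of serine to folate in mitochondria, fell by 1.16, the glutamine transporter SLC1A5 by 1.75 and the secreted STC2 by 1.94. ATF4 itself was not called, at 0.21. Of the 20 cytosolic tRNA synthetases, which charge tRNAs with amino acids, 16 were called lower and 1 higher (QARS, 0.57), with the lowest median in MHCC97H (-0.94), where Hep3B had -0.58 and Huh7 -0.65. IARS, FARSB, VARS and WARS fell by 1.35, 1.23, 1.15 and 1.02. Without Hep3B 10 synthetases were called lower.

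Of 20 glycolytic genes 11 were called lower and 2 higher, with a median of -0.76. LDHA, which makes lactate, went from 5929 to 1529 normalised reads in Hep3B, from 9962 to 4314 in MHCC97H and from 8544 to 1472 in Huh7 (mean -1.90, SE 0.24, adjusted p = 0.00211). PKM, the pyruvate kinase of growing cells, fell by 1.73 (adjusted p = 0.00119), PGAM1 by 1.24 and GPI by 1.23. GAPDH, often used as a reference gene, went from 29811 to 19029, from 51401 to 29997 and from 28630 to 15768 (mean -0.76, adjusted p = 0.00603), so that it was not constant between the groups. The list of hypoxia-response genes outside glycolysis did not fall with the glycolytic list, with a median of 0.31. Of its 14 members 3 (21.4%) were called higher, near the 20.9% of all genes, and 0 lower. The histone demethylase KDM3A was at 0.78. Without MHCC97H 4 members were called higher and 3 lower. Of 24 genes of the pentose phosphate pathway and nucleotide synthesis 16 were called lower and 0 higher. PPAT and PAICS, enzymes of purine synthesis, fell by 1.69 and 1.25, and IMPDH1, which commits purines to guanine nucleotides, by 1.21.

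Lipid synthesis differed by cell line. The 25 cholesterol synthesis genes had a median of 0.96 in MHCC97H but of -0.63 in Hep3B and in Huh7, and 2 were called higher and 0 lower. Without MHCC97H their median was -0.64, with 15 called lower and 1 higher, and without Hep3B or Huh7 it was 0.19 or 0.20. SREBF2, the factor that drives this pathway, rose in all 3 lines, by 0.47 in Hep3B, 1.14 in MHCC97H and 0.59 in Huh7 (adjusted p = 0.0053). Of 16 fatty acid synthesis genes 8 were called lower and 1 higher, with medians of -0.72, -0.01 and -1.22 in the same order. Without Hep3B 1 was called lower, and with only the 6 libraries compared 1 was called lower and 0 higher. ELOVL6, which lengthens palmitate, went from 1286 to 317 normalised reads in Hep3B, 448 to 129 in MHCC97H and 1141 to 470 in Huh7 (mean -1.70, adjusted p = 0.0023). ACLY and ACACA, which supply and carboxylate cytosolic acetyl-CoA, fell by 0.67 and 0.83, with -0.09 and -0.22 in MHCC97H.

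Of 42 genes of ribosome biogenesis and RNA polymerase I, 35 (83.3%) were called lower and 0 higher, against 15.1% of all genes, and 37 were lower in all 3 cell lines. The median was -0.89 both in Hep3B and in MHCC97H, and -0.85 in Huh7. The nucleolar protein LYAR went from 684 to 172 normalised reads in Hep3B, 563 to 163 in MHCC97H and 695 to 192 in Huh7 (mean -1.88, SE 0.32, adjusted p = 0.00392). The 3 pairs lay within a narrow span and the groups did not overlap. BOP1 and NOP2, which process the large subunit RNA, fell by 1.50 and 1.34, and RRS1 by 1.30. Of 30 further MYC targets 21 were called lower and 0 higher, with a median of -0.79. SRM, the spermidine synthase, went from 914 to 350, 1668 to 561 and 1032 to 316 (mean -1.55, adjusted p = 0.00191), and the nucleoside diphosphate kinase NME1 from 892 to 239, 752 to 238 and 908 to 200 (mean -1.91, adjusted p = 0.00182).

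Promoter windows from RefSeq (GRCh38.p14, 250 bases before to 50 after the start of a transcript) were matched to 9281 of the 11548 genes (80.4%), with 13633 windows in all. The E-box CACGTG, the site bound by MYC with MAX and by related factors, stood on either strand in 33.3% of 45 windows of the ribosome biogenesis genes and in 9.53% of all windows. Among windows of genes called lower the share was 12.2%, and among those called higher 8.54%. The box was also frequent in other lists. It stood in 28.9% of 38 windows of the lysosome list, with 14 members called higher and 2 lower. In the ATF4 list, with 14 members called lower and 0 higher, it stood in 19.5% of 41 windows. The E-box was thus not confined to lists that fell. Stretches before the start of LYAR, DDX21, a nucleolar helicase, and SRM are shown for the place of the E-box, in capitals, on the strand of the gene. They lie at chr4:4290055-4290110 (minus strand), chr10:68956591-68956646 (plus) and chr1:11060187-11060242 (minus).
LYAR: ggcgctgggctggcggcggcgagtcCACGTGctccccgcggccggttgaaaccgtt
DDX21: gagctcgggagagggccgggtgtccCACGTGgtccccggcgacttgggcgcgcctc
SRM: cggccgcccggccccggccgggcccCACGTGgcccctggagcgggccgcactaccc
The box begins 64, 31 and 199 bases before the start. DDX21 fell by 1.12 (adjusted p = 0.0109). A match of these letters describes the window and does not show binding.

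The genes of the ribosome itself did not fall with its assembly factors. Of 78 cytosolic ribosomal protein genes 12 (15.4%) were called higher and 3 (3.85%) lower, against 20.9% and 15.1% of all genes. Their median was 0.19, and without Hep3B 1 was called higher and 1 lower. With only the 6 libraries compared 0 were called higher and 0 lower. The median without Huh7 was 0.11. RPL13A, with the largest rise of the list, went from 8219 to 12354 normalised reads in Hep3B, 8318 to 12794 in MHCC97H and 6664 to 9441 in Huh7 (mean 0.57, adjusted p = 0.00614). Of 15 other genes whose mRNAs are listed as beginning with a 5′ terminal oligopyrimidine (TOP) tract, through which mTOR controls translation, 11 were called higher and 0 lower, with medians of 0.57, 0.44 and 0.86, and without Hep3B 6 were. Not all of them are translation factors, and TPT1, NAP1L1, HNRNPA1 and the filament protein VIM, all 4 called higher, are among those that are not. TPT1 rose by 0.81 (SE 0.11, adjusted p = 0.0023), and the initiation factor subunits EIF3F and EIF3L by 0.77 and 0.70. EEF2, the elongation factor that moves the ribosome along the message, had 40326 unscaled reads in untreated Hep3B and 95533 with the combination, 29810 and 48016 in MHCC97H, and 38047 and 66877 in Huh7 (mean 1.02, adjusted p = 0.00342). Ribosomal protein genes, GAPDH, PGAM1 and HLA genes have near-identical copies in the genome, and the sources used here do not give how reads were shared among copies.

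Of 40 genes of DNA replication and S phase 23 were called lower and 0 higher, with its lowest median in MHCC97H (-1.22), where Hep3B had -0.46 and Huh7 -0.76, and 36 were lower in all 3 lines. CDC6, which loads the replicative helicase, went from 1779 to 730 normalised reads in Hep3B, 1473 to 239 in MHCC97H and 1641 to 455 in Huh7 (mean -1.92, SE 0.41, adjusted p = 0.00814). RRM2, a subunit of ribonucleotide reductase, fell by 1.60 and ORC1 by 1.56. Of 40 genes of mitosis and G2/M 28 were called lower and 0 higher, and 37 were lower in all 3 lines, with medians of -0.80, -0.55 and -0.84. The mitotic kinases AURKA and PLK1 fell by 1.09 and 1.14 (adjusted p = 0.00296 and 0.00314), CDC20 by 1.09 and CCNB1 by 0.89. Without Hep3B, 11 replication and 13 mitosis genes were called lower. Of 8 G1 cyclins and kinases 4 were called lower, with CDC25A, the phosphatase that frees CDK2, at -1.94 and CCND3 at -1.13, and 2 without Hep3B or MHCC97H. In bulk RNA, fewer cycling cells and less of these messages in each cell cannot be told apart.

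The CHR element TTTGAA, a site of cell cycle-dependent repression, stood on either strand in 60.5% of 43 windows of the mitosis genes, against 10.4% of all windows, 12.7% of windows of genes called lower and 8.74% of those called higher. Stretches of 4 of these genes are shown with the element in capitals, on the strand of the gene. They lie at chr16:23678835-23678888 (plus), chr1:43358891-43358946 (plus), chr2:26786013-26786055 (plus) and chr10:128126440-128126495 (minus).
PLK1: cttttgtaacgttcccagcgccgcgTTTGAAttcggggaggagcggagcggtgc
CDC20: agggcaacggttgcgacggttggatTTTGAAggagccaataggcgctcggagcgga
CENPA: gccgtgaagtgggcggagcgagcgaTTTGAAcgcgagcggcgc
MKI67: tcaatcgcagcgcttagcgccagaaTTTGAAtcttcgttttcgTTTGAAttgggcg
CENPA, the histone of centromeres, fell by 0.80 and MKI67, the Ki-67 antigen, by 1.20, from 4686 unscaled reads to 2650 in Hep3B, 6092 to 2806 in MHCC97H and 7088 to 1796 in Huh7 (adjusted p = 0.00583).

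Of 25 CDK inhibitors and quiescence genes 10 were called higher and 2 lower, with a median of 0.71 and, without MHCC97H, of 0.37. YPEL1, of the Yippee family, had the largest change of this list at 3.83 (SE 0.31, adjusted p = 0.000965), from 7.5 to 160 normalised reads in Hep3B, 3.07 to 48.5 in MHCC97H and 18.8 to 244 in Huh7. The untreated level in MHCC97H was 4 unscaled reads. Its relatives YPEL2, YPEL3 and YPEL5 rose by 2.85, 2.16 and 1.70, so that all 4 family members in the table were called. The antiproliferative BTG2 went from 207 to 969, 26.9 to 243 and 272 to 762 (mean 2.28, adjusted p = 0.00301), and the Krüppel-like factor KLF6 rose by 2.0. The classical CDK inhibitor CDKN1A was higher in Hep3B (1.99) and MHCC97H (1.01) and lower in Huh7 (-0.87), with an adjusted p of 0.312, while CDKN1B rose by 0.58 (adjusted p = 0.0299).

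FOXO factors, which AKT keeps out of the nucleus, and their target genes had more members higher than lower. Of 21 members, 10 (47.6%) were called higher and 0 lower, against 20.9% and 15.1% of all genes. The median was highest in MHCC97H (1.26), against 0.64 in Huh7 and 0.17 in Hep3B. Over the 3 lines the list median was 0.85. Among the 75% of genes with the highest mean it was 0.48, with 7 called higher and 0 lower. FBXO32, a ubiquitin ligase subunit, went from 177 to 1623 normalised reads in MHCC97H, and from 6.56 to 31.6 in Hep3B and 5.01 to 39.6 in Huh7, where it was barely expressed (mean 2.68, adjusted p = 0.00168). FOXO3 rose by 0.85 (adjusted p = 0.00603). TXNIP, an inhibitor of thioredoxin, had 2606 unscaled reads in untreated Hep3B and 2564 with the combination, but 36 and 856 in MHCC97H and 465 and 1908 in Huh7 (mean 2.28, adjusted p = 0.0411). The gain was thus carried by 2 of the 3 lines. A forkhead motif, TGTTTAC on either strand, stood in 13.3% of 30 windows of the FOXO list (4 windows), in 3.81% of windows of genes called higher, 2.25% of those called lower and 2.70% of all. It is shown in capitals for BCL2L11 at chr2:111120666-111120722 (plus strand), and for TXNIP at chr1:145996672-145996728 (minus strand), in both as the reverse complement.
BCL2L11: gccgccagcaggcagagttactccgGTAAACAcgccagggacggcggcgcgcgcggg
TXNIP: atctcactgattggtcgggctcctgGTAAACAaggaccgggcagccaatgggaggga

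Some proapoptotic members of the BCL2 family rose and others did not. BMF, which binds and blocks the survival members of the BCL2 family, had 613 normalised reads in untreated Hep3B, 169 in MHCC97H and 326 in Huh7, and 5338, 2582 and 4380 with the combination. All 3 combination levels were far above all untreated levels, with changes of 3.12, 3.93 and 3.75 and a mean of 3.60 (SE 0.15), and the adjusted p of 3.94e-06 was the smallest of all genes. BCL2L11, which encodes BIM, went from 259 to 519, 359 to 1560 and 565 to 815 (mean 1.22, SE 0.26, adjusted p = 0.00825), with its largest gain in MHCC97H. BBC3, which encodes PUMA, rose by 1.90 and the effector BOK by 1.64 (adjusted p = 0.00375 and 0.00216). MCL1, a survival protein that these bind, was at 4367 and 4548 in Hep3B, 4920 and 4229 in MHCC97H and 2777 and 3546 in Huh7 (mean 0.06, adjusted p = 0.735), and BCL2L1, another survival protein, was not called at -0.03. The proapoptotic BAK1, BID, BAD and PMAIP1 were not called, at -0.24, -0.25, 0.43 and 0.08. The family median was 0.07, and that of all genes 0.09, with 20.9% called higher and 15.1% lower. Of 14 members, 5 (35.7%) were called higher and 2 (14.3%) lower, the latter BCL2L12 at -0.81 and the effector BAX at -0.32. Without Hep3B 3 were higher and 0 lower. Of 17 p53 target genes 7 were called higher and 3 lower, with TP53INP1 at 2.45 and the stress sensor SESN2 at -0.83, and without Hep3B 3 and 0 were called, without MHCC97H 4 and 1.

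**Figure D3:**
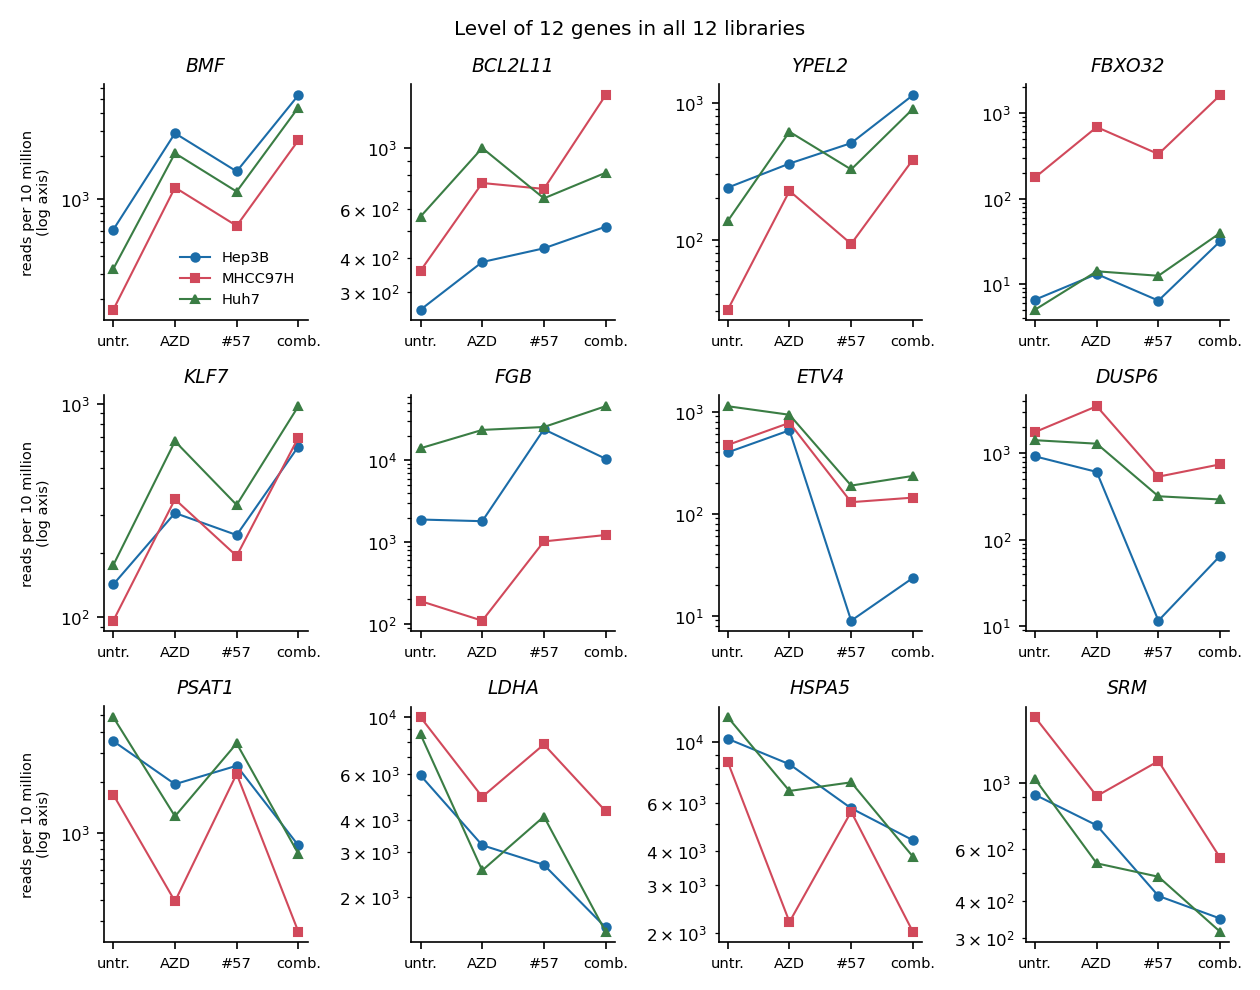
Normalised reads (y axis, log scale) of 12 genes in all 12 libraries, by treatment (x axis: untreated, AZD8055, compound #57, combination), with 1 line of points per cell line. BMF, YPEL2 and KLF7 are highest and SRM and PSAT1 lowest with the combination in every line, while DUSP6 in Huh7 stands at 318 with compound #57 and at 292 with the combination.

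Of 42 lysosome genes 14 were called higher and 2 lower, with a median of 0.30, and of 34 autophagy genes 14 and 2, with a median of 0.36. NPC2, which carries cholesterol out of the lysosome, went from 277 to 556 normalised reads in Hep3B, 282 to 590 in MHCC97H and 247 to 804 in Huh7 (mean 1.26, adjusted p = 0.00336), and the peptidase TPP1 rose by 0.78. GLA, an α-galactosidase, fell by 0.97 and ATP6V1A, a subunit of the proton pump, by 0.78. Among autophagy genes the receptor OPTN rose by 2.0, GABARAPL1 by 1.96, ATG14 by 1.13 and MAP1LC3B by 0.75, all of them in every line. Without Hep3B 7 lysosome genes were called higher, without MHCC97H 9, and with only the 6 libraries compared 4.

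Of 22 ER chaperones and unfolded protein response genes 15 were called lower and 1 higher, and every line had a negative median, from -1.08 in Huh7 to -0.71 in Hep3B. HSPA5, the main chaperone of the ER, went from 10279 to 4364 normalised reads, 8448 to 2014 and 12338 to 3801 in Hep3B, MHCC97H and Huh7 (mean -1.67, SE 0.29, adjusted p = 0.00431). SDF2L1, a cofactor of HSPA5, fell by 2.12, HYOU1 by 1.53 and PDIA4 by 1.47. The box CCAAT, bound by NF-Y, stood on either strand in 88.9% of 27 windows of these genes and in 35.1% of all windows, 42.6% of windows of genes called lower and 30.9% of those called higher. The box was also frequent in other lists, with 78.3% for cholesterol synthesis, 72.1% for mitosis, 59.3% for CDK inhibitors and quiescence and 59.1% for p53 targets. It is short and common, and is shown in capitals for HSPA5 (chr9:125241502-125241556, minus strand), SDF2L1 (chr22:21642095-21642149, plus) and HYOU1 (chr11:119057355-119057409, minus).
HSPA5: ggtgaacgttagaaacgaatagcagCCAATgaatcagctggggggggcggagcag
SDF2L1: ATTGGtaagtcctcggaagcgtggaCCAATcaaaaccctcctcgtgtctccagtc
HYOU1: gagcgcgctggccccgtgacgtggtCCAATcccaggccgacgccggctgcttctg
Of 33 proteasome subunits 28 (84.8%) were called lower and 1 higher, with medians from -0.65 to -0.54. PSMD1 and PSMD2, scaffolds of the regulatory particle, fell by 1.08 and 0.91. Without Hep3B 18 subunits were called lower. Of 45 subunits of oxidative phosphorylation 15 were called lower and 0 higher, with CYCS, cytochrome c, at -1.25. Without Hep3B 6 were called, without MHCC97H 8, and with only the 6 libraries compared 3.

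Hepatocyte genes did not move as one. Of 31 plasma protein genes 6 (19.4%) were called higher and 3 (9.68%) lower, no more than the 20.9% and 15.1% of all genes. Their median of 0.10 was near that of all genes, 0.09. It was -0.16 in Hep3B but positive in MHCC97H (0.42) and Huh7 (0.29). ALB was at 210935 and 181037 normalised reads in Hep3B, 303 and 256 in MHCC97H and 40721 and 68526 in Huh7 (mean 0.10, adjusted p = 0.769). The 3 fibrinogen genes rose, with FGB going from 1895 to 10481, 191 to 1225 and 14089 to 45924 (mean 2.28, SE 0.57, adjusted p = 0.0142), FGA by 1.5 and FGG by 2.07. VTN, vitronectin, rose by 1.61, with 4 unscaled reads in untreated MHCC97H. APOB, the protein of low-density lipoprotein, went from 82179 to 22097 in Hep3B, 240 to 167 in MHCC97H and 60737 to 15197 in Huh7 (mean -1.47, adjusted p = 0.00492), and RBP4 fell by 1.20. Without Hep3B 2 plasma protein genes were called higher and 1 lower, and without MHCC97H 8 and 8.

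Of 30 liver transcription factors and nuclear receptors 9 were called higher and 3 lower. ONECUT1 went from 242 to 585 normalised reads in Hep3B, 6.14 to 22.6 in MHCC97H and 177 to 741 in Huh7 (mean 1.69, adjusted p = 0.00179), NR5A2, with 1 unscaled read in untreated MHCC97H, rose by 1.84 and HNF4A, a master factor of hepatocytes, by 0.84. AFP, the fetal albumin, was not called, at -0.14 (adjusted p = 0.541). HMGA2, a chromatin protein of fetal and tumour cells, went from 4272 to 558 in Hep3B and 6495 to 1910 in Huh7, but from 732 to 585 in MHCC97H (mean -1.67, adjusted p = 0.00973), and the RNA-binding IGF2BP1 fell by 0.76, while its relative IGF2BP3 rose by 0.69 (adjusted p = 0.0188). Of 11 oncofetal genes 1 was called higher and 2 lower. Of 28 genes of fatty acid oxidation 8 were called higher and 1 lower, and 2 were called higher without Hep3B. CPT1A, which admits fatty acids to mitochondria, went from 338 to 1353, 1666 to 2864 and 12.5 to 220 (mean 2.27, adjusted p = 0.00979).

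Among lists of YAP signalling, matrix and immune recognition, more members were called higher than lower, which also held for all genes (20.9% against 15.1%). The shares called higher and lower were 56.5% and 4.35% for YAP and TEAD, and 36.4% and 6.06% for matrix and integrins. They were 38.1% and 14.3% for TGF-beta, 39.3% and 3.57% for interferon, and 43.8% and 6.25% for epithelial and mesenchymal genes. Of 23 genes of the YAP and TEAD pathway and its targets 13 were called higher and 1 lower, with a median of 0.83. The one lower was the coactivator YAP1 itself (-0.53), and the TEAD2 and TEAD3 factors were among those higher. ANKRD1 went from 759 to 8202 normalised reads in Hep3B, 49.9 to 217 in MHCC97H and 894 to 5523 in Huh7 (mean 2.72, SE 0.35, adjusted p = 0.00211), and AMOTL2, an inhibitor of YAP, rose by 1.66. Of 33 matrix and integrin genes 12 were called higher and 2 lower, with the laminin LAMB2 at 1.75 and COL18A1 at 1.32. The collagen receptor subunit ITGA2 fell by 2.89 in Hep3B, 0.54 in MHCC97H and 2.44 in Huh7 (adjusted p = 0.00567). Of 21 genes of the TGF-beta pathway 8 were called higher and 3 lower, with its inhibitor SMAD7 at 1.66. Of 28 interferon and antigen presentation genes 11 were called higher and 1 lower. TAP1, which pumps peptides into the ER, went from 58.1 to 318, 195 to 437 and 13.2 to 88.6 (mean 2.09, adjusted p = 0.00301), and IRF1 rose by 1.47 and HLA-C by 1.15, while TAP2, the partner of TAP1, fell by 1.19 (adjusted p = 0.0132). Of 16 epithelial and mesenchymal genes 7 were called higher and 1 lower, with the epithelial factor ELF3 at 1.55 (adjusted p = 0.00097), the junction genes CLDN1 and OCLN at 1.35 and 1.34, and SNAI1, a repressor of epithelial genes, at -1.34. The mesenchymal members CDH2, VIM and FN1 were also called higher, at 2.17, 1.51 and 0.65, so that genes of both kinds rose. Without Hep3B the counts of higher genes were 9 for the YAP and TEAD list, 7 for matrix, 5 for TGF-beta and 4 for epithelial and mesenchymal genes.

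Among all called genes, those with the largest smallest change over the 3 lines were YPEL1, BMF, EBF4, OLFML2A, EPPK1, SOCS2, BAAT, SHC2, PDE5A and ATF3 upwards. SOCS2, a suppressor of cytokine signalling, went from 2.81 to 377 normalised reads in Hep3B, 111 to 669 in MHCC97H and 8.14 to 98.9 in Huh7 (mean 4.22, SE 0.67, adjusted p = 0.00334). It rested on 3 unscaled reads in untreated Hep3B. The stress factor ATF3 went from 89.1 to 500, 164 to 1018 and 59.5 to 364 (mean 2.56, adjusted p = 0.0021), and BAAT, which conjugates bile acids, rose by 3.08. Downwards they were FABP5, PSAT1, SDF2L1, CHAC2, LYAR, KBTBD8, ETV4, SLC51B, NME1 and ETV5. FABP5, a carrier of fatty acids, went from 268 to 32.4 in Hep3B, 180 to 34.0 in MHCC97H and 684 to 131 in Huh7 (mean -2.59, SE 0.42, adjusted p = 0.00342), and KBTBD8, a ubiquitin ligase adaptor, fell by 2.10. For ATF3 and FABP5 no combination level reached into the untreated range.

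The libraries with 1 drug show where the combination differed from each. Against AZD8055 alone 0 genes were called by limma, with 1673 at an unadjusted p under 0.05 and a smallest adjusted p of 0.121, and without MHCC97H 3 were called, all lower: ITGA2, ATP2B2 and TACC1. Against compound #57 alone 302 genes (2.62%) were higher and 181 (1.57%) lower in the combination, but 0 without Huh7 and 1 without Hep3B, BMF. The departure from the sum of both single drugs on the log2 scale was called for 0 genes by limma, with 178 at an unadjusted p under 0.05. AZD8055 against untreated called 342 genes (2.96%), and compound #57 against untreated 1 (0.00866%), again BMF, with 2501 at an unadjusted p under 0.05. These comparisons share libraries with one another, so their values are set side by side and not taken as independent.

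**Figure D4:**
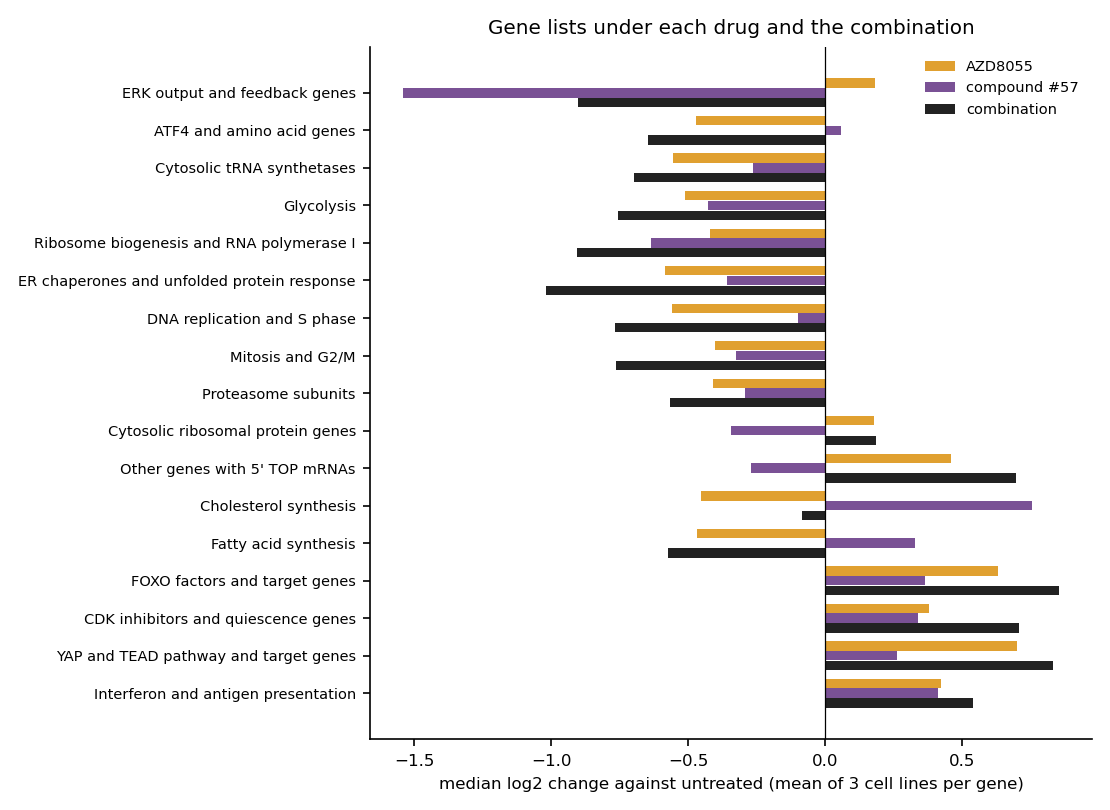
Median log2 change against untreated (x axis) of 17 gene lists (y axis) with AZD8055, compound #57 and the combination, each gene averaged over the 3 cell lines. The ERK output list lies at 0.18, -1.54 and -0.90 in this order, the ribosome biogenesis list at -0.42, -0.64 and -0.91, and the other genes with TOP mRNAs at 0.46, -0.27 and 0.70.

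The lists differed in which drug came nearest to the combination. The ERK output list had medians of 0.18 with AZD8055, -1.54 with compound #57 and -0.90 with both. DUSP6 in Hep3B was at 609 normalised reads with AZD8055, 11.5 with compound #57 and 64.8 with both, against 923 untreated, and SPRY4 at 873, 1.92 and 62.4 against 530. The SPRY4 level with compound #57 in Hep3B rested on 3 unscaled reads. In MHCC97H SPRY4 was at 191 with compound #57 and 107 with both, and DUSP6 in Huh7 at 318 and 292, so that the lines did not share a direction, and neither gene passed the test between these treatments (adjusted p = 0.441 for DUSP6 and 0.478 for SPRY4). Cytosolic ribosomal protein genes had medians of 0.18, -0.35 and 0.19, and 39 of 78 were called higher in the combination than with compound #57 alone, and 0 lower. Of the 15 other genes with TOP mRNAs 11 (73.3%) were higher in that comparison. The ATF4 list had medians of -0.47, 0.06 and -0.65, with 8 of 28 called lower in the combination than with compound #57 and 1 higher, and cholesterol synthesis -0.45, 0.75 and -0.09. Ribosome biogenesis had -0.42, -0.64 and -0.91, ER chaperones -0.58, -0.36 and -1.02, and mitosis genes -0.40, -0.33 and -0.77, where both single drugs pointed the way of the combination. BMF was at 2895, 1208 and 2098 normalised reads with AZD8055 and at 1566, 652 and 1132 with compound #57 in Hep3B, MHCC97H and Huh7, each between the untreated and the combination level of its line. It was higher in the combination than with compound #57 by 1.90 (SE 0.15), and KLF7, another Krüppel-like factor, by 1.58.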

How the data were processed

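RNA from 12 cultures was sequenced (polyA+ stranded libraries per the labels, TruSeq chemistry, build hg38 per the submitters' processing notes). The authors deposited 1 table of log2 values for 11548 genes. Its scale was worked out from the values: the deposited log2 value is that of reads per 10000000 reads of the library plus 1, with 0.001 added, and 100.0% of values gave whole reads within 0.001. Aligner, counting, gene filter and normalization are not given in the sources used here. All 12 value columns were used.

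Samples were grouped by their treatment and cell line labels. limma 3.58.1 (R 4.3.3) was fitted with a trend on log2 (level + 1) of all 12 libraries, on terms for cell line and treatment, with 6 residual degrees of freedom, and Benjamini-Hochberg adjustment over all 11548 genes. The pairing is by the same cell line. Adjusted p-values in the report are limma's and measure the spread between 3 cell lines with 1 library per condition. Python 3.11.15 was used for the rest. The code was tested on simulated data, with far fewer changed genes than were called here. There limma called 10.4% of 67 genes set to change by 0.5 log2 units in either direction. It called 50.7% of 67 genes set to change by 1, 84.8% of 66 by 2, and 6 unchanged genes. A gene not called may thus still have changed. Intervals cover counting error only. Promoters are those of RefSeq (GRCh38.p14). Fits without the cell line term, on the 6 libraries compared, with a pseudocount of 10, on the 75% of genes with the highest mean, without genes at 0 reads, with centred libraries, by voom on the recovered reads, and without each cell line were tried.

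The comparison and the gene lists were chosen with earlier results of these data known. Genes were named by rule: in each direction the 10 called genes with the largest smallest change over the lines and at least 10 reads in the higher library of each pair, a set list of pathway genes, up to 4 called members of each list with the smallest p (the 2 with the largest change where fewer than 2 were called), and up to 5 per direction against each single drug. Symbols on 2 lines of the table or turned into dates were not named. ATF4, ATP2B2, BAD, BAK1, BAX, BCL2L1, BCL2L12, BID, CDH2, CDKN1A, CDKN1B, CENPA, CRKL, DDX21, EEF2, EGR1, FGA, FGG, FN1, FOXO3, GRB2, HNRNPA1, MKI67, NAP1L1, PMAIP1, QARS, RRAGB, TACC1, TAP2, TEAD2, TEAD3, TXNIP, VIM, YAP1 and YPEL3 were named after their values were seen.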

Additional observations from a re-analysis of the deposited data

How the results depend on the processing

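With no replicate block, that is without the cell line pairing, 0 genes were called against untreated (0 higher, 0 lower, 1268 at an unadjusted p under 0.05) and 0 against compound #57. With only the libraries compared, 1889 were called (1021 higher, 868 lower), and 265 against compound #57. Leaving out 1 cell line gave between 11 (without Huh7) and 3778 calls (without MHCC97H), with 11 to 2067 higher and 0 to 1711 lower. Without Hep3B there were 1797 (1030 higher, 767 lower). Against AZD8055 it gave up to 3 calls, without MHCC97H. Against compound #57 it gave 0 without Huh7 and 1 without Hep3B. Among the 75% of genes with the highest mean, where fewer genes were tested, the genes at least 2-fold higher in Hep3B numbered 705, the genes at least 2-fold higher in MHCC97H 714 and the genes at least 2-fold higher in Huh7 683. Values not called that changed sign were PTPN11 at 0.045 without MHCC97H, CCND1 at 0.191 without Hep3B, MCL1 at -0.006 with centred libraries and -0.08 without Huh7, AXL at -0.031 by voom, and ALB at -0.231 without Huh7. The medians of 35 of 37 lists kept their sign, the others being cholesterol synthesis and the BCL2 family (-0.002 without Huh7). Apart from the smaller numbers of genes or libraries, the cause was not tested. With 1 library per condition and line, a difference between lines has no replicate check, and genes with under 10 reads are imprecise.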

Other observations

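Some gene families, grouped by name after their values were seen and given without a test, had shares of calls unlike those of all genes (20.9% higher, 15.1% lower). Of 382 zinc finger genes named ZNF, 106 (27.7%) were called higher and 10 (2.62%) lower, with a median change of 0.29. Of 74 mitochondrial ribosomal protein genes 36 (48.6%) were called lower and 0 higher, with medians of -0.53 (Hep3B), -0.35 (MHCC97H) and -0.42 (Huh7). Of 9 CCT subunits of the cytosolic chaperonin, which folds actin and tubulin, 6 were called lower and 0 higher, and of 21 nuclear pore genes named NUP 9 and 0. Of 13 Krüppel-like factors 5 were called higher and 1 lower, with a median of 0.72, and of 52 F-box genes, adaptors of ubiquitin ligases, 17 and 3.

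Genes called higher had a median of the mean log2 level of 8.10 and a median gene length of 36.0 kb, those called lower 9.15 and 28.9 kb, and all genes 8.46 and 34.4 kb. The ETS motif CCGGAAGT stood on either strand in 11.4% of promoter windows of genes called lower, 5.43% of those called higher and 7.90% of all windows.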
